A study of Mus musculus with 12 samples.

Results

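The phagocyte NADPH oxidase is the enzyme with which macrophages, microglia and neutrophils turn oxygen into superoxide at the membrane of a phagosome. The genes of 5 of its proteins, Cybb, Cyba, Ncf1, Ncf4 and Rac2, were taken by symbol from the 24058 gene symbols that occur once in the deposited tables, and all 5 were found. Cybb encodes NOX2, the catalytic membrane protein, and Cyba encodes its membrane partner p22phox; the pair forms flavocytochrome b558. Ncf1 encodes the organiser that binds p22phox once it is phosphorylated, Ncf4 encodes a subunit that binds a phosphoinositide of the phagosome membrane, and Rac2 encodes a small GTPase that joins the complex in its active form. In resting cells these last proteins stay in the cytosol, and the oxidase is active only when they meet the flavocytochrome. Loss of some of its subunits causes chronic granulomatous disease, in which phagocytes fail to kill ingested microbes. In microglia the oxidase is known as a source of oxidants during inflammation. The factor PU.1 is known as a regulator of several of these genes in myeloid cells.

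RNA was sequenced from BV2 cells, a retrovirally immortalised line of mouse microglia, grown in serum and sorted by flow cytometry after transient transfer of a construct. There were 4 groups of 3 libraries: a scrambled hairpin control, a short hairpin against Spi1 (the gene of PU.1), an empty vector control, and a cDNA of mouse Spi1. The first pair of groups forms the knockdown experiment and the second pair the overexpression experiment, each with its own controls and its own table, and the libraries of a group are numbered 1 to 3. Nothing in the labels tells whether the 3 libraries of a group are from separate cultures, so a p-value reflects no more than how these libraries vary, possibly for technical reasons, and all of them come from 1 cell line. Levels are FPKM, reads scaled to the length of the gene and to the reads of the library, and a log2 fold change is a difference in mean log2(FPKM + 1). A gene is called where the limma test, with Benjamini-Hochberg (BH) adjustment over all tested genes, gives an adjusted p under 0.05.

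Depth ran from 22.3 to 33.1 megareads per library, and 14868 to 15488 genes were above 0. Spi1 itself was at 159, 169 and 168 FPKM with the scrambled hairpin and at 50.9, 42.4 and 52.3 FPKM in knockdown, and at 158, 117 and 131 FPKM with the empty vector against 287, 224 and 206 FPKM with the cDNA. Knockdown lowered Spi1 by a log2 fold change of -1.75 (limma, BH adjusted p = 0.000697). All 3 cDNA libraries lay above all empty controls, with a log2 fold change of 0.81 (SE 0.165) that was not called (limma, BH adjusted p = 0.99993). With the replicate block this change was called (SE 0.0629; limma, BH adjusted p = 0.0357). Of 13 marker genes of microglia and macrophages all were in the tables and 12 were above 0 in at least 1 library. Sall1, which adult microglia express, was at 0 in all 12. Levels were very uneven, with Cd68 at 580 to 757 FPKM but P2ry12, Cx3cr1 and Tmem119 at no more than 0.415, 0.903 and 4.67 FPKM. The summed level of the 13 markers was 2343 to 2488 FPKM with the scrambled hairpin and 1978 to 2190 FPKM in knockdown. This sum thus moved with the knockdown, and its part in the results was not tested. The markers did not move alike. Of 10 tested in knockdown 5 were called lower and 1 higher, beside 8.86% and 17.4% of all tested genes. The 1 that rose was Adgre1, listed as Emr1, by 0.74 (limma, BH adjusted p = 0.0032), and Cd68 stood at -0.02. The summed level of the 13 markers was 2138 to 2423 FPKM with the empty vector and 2118 to 2403 FPKM in overexpression. Of 10 neutrophil markers 9 were in the tables; their sum was 12.3 to 14.8 FPKM in knockdown, 17.3 to 18.1 FPKM with the scrambled hairpin and 15.0 to 18.2 FPKM in the overexpression experiment, with S100a9 at 0 throughout. Markers of neurons, astrocytes, oligodendrocytes, endothelium, T cells and B cells each summed to at most 0.569 FPKM. In bulk RNA, fewer cells of a kind and less RNA per cell cannot be told apart.

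The promoters of the genes are shown because PU.1 is the factor that was changed and these genes differed in how far they moved. Promoter windows of 300 bases, from 250 before to 50 after the start of transcription, were found for 3 of the 5 genes in RefSeq sequences of build GRCm38.p6, the build that mm10 names. They are written 5′ to 3′ along the gene, with capitals for every GGAA, the core shared by sites of ETS factors, and for GAGGAA, a longer core typical of PU.1 sites, on either strand (TTCC and TTCCTC are the same letters on the other strand). The 3 windows, on the minus strand of chrX:9469275-9469574, chr8:122432891-122433190 and chr5:134229576-134229875, are as follows.
Cybb: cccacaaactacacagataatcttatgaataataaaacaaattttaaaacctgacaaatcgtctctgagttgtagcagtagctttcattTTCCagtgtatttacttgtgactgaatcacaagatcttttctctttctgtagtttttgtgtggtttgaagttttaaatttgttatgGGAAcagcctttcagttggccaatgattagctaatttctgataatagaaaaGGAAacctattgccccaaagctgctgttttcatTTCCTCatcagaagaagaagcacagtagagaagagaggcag
Cyba: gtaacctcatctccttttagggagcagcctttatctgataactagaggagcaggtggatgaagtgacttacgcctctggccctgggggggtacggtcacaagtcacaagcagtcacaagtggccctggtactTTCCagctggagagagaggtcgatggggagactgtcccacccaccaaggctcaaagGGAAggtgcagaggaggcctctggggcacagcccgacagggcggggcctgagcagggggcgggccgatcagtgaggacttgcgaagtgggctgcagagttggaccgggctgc
Ncf1: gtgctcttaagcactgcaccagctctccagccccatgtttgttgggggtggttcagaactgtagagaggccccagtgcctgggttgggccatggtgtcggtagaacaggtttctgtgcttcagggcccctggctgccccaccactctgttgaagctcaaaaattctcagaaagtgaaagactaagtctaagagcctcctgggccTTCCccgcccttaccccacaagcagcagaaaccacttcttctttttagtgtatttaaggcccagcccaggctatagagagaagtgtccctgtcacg

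The Cybb window holds 4 GGAA cores, 1 of which is part of GAGGAA and begins at base 10 after the start. The Cyba window holds 2 GGAA cores and the Ncf1 window 1, at base -46, and neither holds GAGGAA. Among 32851 promoter windows of the same length 28.3% hold GAGGAA and 96.0% hold GGAA, GGAA matches within GAGGAA included. The windows also differ in base composition, with 35.3% G and C in Cybb, 54.0% in Ncf1 and 60.7% in Cyba. These matches describe letters in a window and do not show that a factor binds there.

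Cyba was by far the most abundant of the 5 transcripts per length, followed in most libraries by Cybb and Rac2, and Ncf1 and Ncf4 were lowest. Over all 12 libraries Cyba lay between 876 and 1081 FPKM, while no other member passed 234 FPKM. The level of Cyba was 4.26 to 9.98 times that of Cybb, its partner in the flavocytochrome. Rac2 stood above Cybb in scrambled control 1 and overexpression 3 only, and Ncf1 stood below Ncf4 in all 3 knockdown libraries, both libraries numbered 2 of the overexpression experiment and overexpression 3. The lowest number of reads behind any of these values was 2314, for Ncf4, which gives a counting error of 2.08%. Comparisons of level between genes rest on the gene lengths the authors used, which came out as 4750 bases for Cybb, 759 for Cyba, 2969 for Ncf1, 1454 for Ncf4 and 3036 for Rac2.

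In mm10 Cybb lies on chromosome X (bases 9435252 to 9487771, minus strand) and Cyba on chromosome 8 (122424776 to 122432930, minus strand). The Cybb promoter window, at bases 9469275 to 9469574, lies inside these bounds of Cybb. The RefSeq start used for it is thus not the outermost start of the annotated gene. Ncf1 lies on chromosome 5 (134220053 to 134229625, minus strand), while Ncf4 (78244801 to 78262580, plus strand) and Rac2 (78559167 to 78572783, minus strand) are both on chromosome 15. In GENCODE M21, 408 exonic bases of Ncf1 overlap exons of Gtf2ird2 on the other strand, and the library kit does not mark strand, so reads there cannot be told apart; Gtf2ird2 was at 1.94 to 4.06 FPKM. The exons of the other 4 genes overlap no other annotated gene.

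In knockdown, the 3 cytosolic subunit genes and Cybb fell, and Ncf1 fell furthest, to 50.5% of its control level. Ncf4 stood at 68.7% of control, Rac2 at 71.7% and Cybb at 70.6%. Cyba stood at 91.0% of control and was not called. Of 11214 genes tested 26.3% were called in either direction, 17.4% as higher and 8.86% as lower, against 4 of the 5 members as lower. Of all calls 1952 were higher and 993 lower, and with median-of-ratios scaling 1248 were higher and 1454 lower. With the replicate number as a block 45.3% of genes were called, 30.6% as higher and 14.7% as lower, and the same 4 members.

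Ncf1, the organiser, was at 93.9, 115 and 103 FPKM with the scrambled hairpin and at 52.3, 51.7 and 53.6 FPKM in knockdown. The knockdown libraries were tightly grouped and lay far below all controls. The log2 fold change was -0.97 with a standard error (SE) of 0.0825 (limma, BH adjusted p = 0.00143).

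Ncf4, the phosphoinositide-binding subunit, was at 92.5, 97.8 and 96.2 FPKM with the scrambled hairpin and at 64.2, 61.6 and 71.0 FPKM in knockdown, a log2 fold change of -0.54 (SE 0.0721; limma, BH adjusted p = 0.00399). Rac2, the GTPase, was at 137, 136 and 141 FPKM against 96.3, 94.6 and 106 FPKM, a log2 fold change of -0.48 (SE 0.0674; limma, BH adjusted p = 0.00462). For both genes every knockdown library was lower than every control, by more than the spread within either group. The calls of Ncf1, Ncf4 and Rac2 held when any 1 of the 6 libraries was left out. Without both libraries numbered 2 Ncf1 was called (limma, BH adjusted p = 0.0357), and Ncf4 and Rac2 were not (both 0.0529).

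Cybb, the catalytic subunit, was at 122, 158 and 164 FPKM with the scrambled hairpin and at 101, 96.0 and 117 FPKM in knockdown. Control 1 was the lowest control and lay close to knockdown 3, although the groups did not overlap. The log2 fold change was -0.49 (SE 0.128; limma, BH adjusted p = 0.0295), about as large as those of Ncf4 and Rac2 but with a wider error. Cybb was no longer called without scrambled control 2 (adjusted p = 0.0764), scrambled control 3 (0.0789), knockdown 1 (0.0785) or knockdown 2 (0.0899) in limma, without both libraries numbered 2 (0.188), and without a filter on low values (0.0719).

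Cyba was at 1047, 1081 and 1049 FPKM with the scrambled hairpin and at 1007, 953 and 931 FPKM in knockdown. Here too every knockdown library was lower than every control, but by little, with a log2 fold change of -0.14 and a 95% interval from -0.28 to 0.01 (limma, BH adjusted p = 0.135). With median-of-ratios scaling in place of the deposited scaling Cyba was called, at -0.22 (limma, BH adjusted p = 0.0396). The members' groups failed to overlap in 5 of 5, all lower, beside 15.1% of all tested genes lower without overlap.

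**Figure D1:**
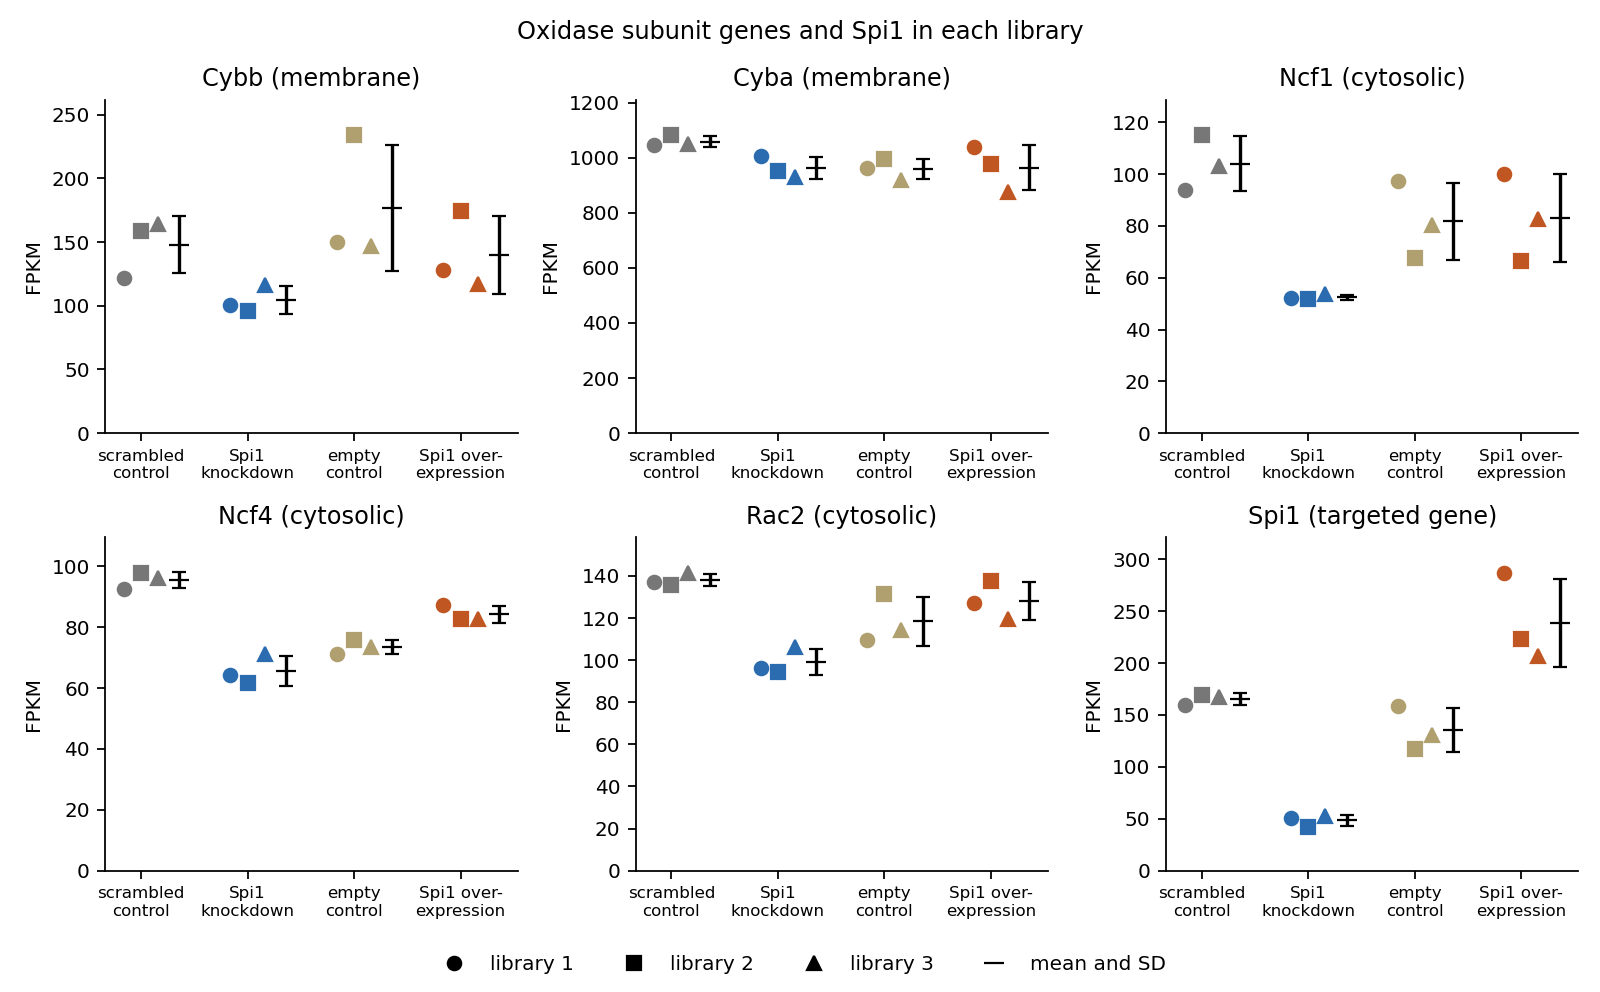
Level in FPKM (vertical axes, from 0) of the 5 subunit genes and of Spi1 in each of the 12 libraries, by group; the marker shape gives the library number and the bars the mean and SD of 3 libraries. The 3 knockdown libraries of Ncf1 sit between 51.7 and 53.6 FPKM, below all other libraries, and the libraries numbered 2 of the overexpression experiment are highest for Cybb and lowest for Ncf1 in their groups.

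Membrane and cytosolic subunits were compared through the mean log2(FPKM + 1) of Cybb and Cyba minus that of Ncf1, Ncf4 and Rac2 in each library. As the genes were chosen with earlier results known, these differences are given without a test. The difference was 1.75, 1.84 and 1.88 with the scrambled hairpin and 2.20, 2.16 and 2.14 in knockdown, or 1.82 ± 0.0690 against 2.17 ± 0.0307 (mean ± SD, n = 3 each). The membrane genes thus stood further above the cytosolic genes in every knockdown library than in any control, by 0.35 on average. The mean of the membrane genes was lower in knockdown by a log2 difference of -0.31 and that of the cytosolic genes by -0.66.

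The divide did not run cleanly between membrane and cytosol. Cyba minus Ncf1 went from 3.34 ± 0.121 with the scrambled hairpin to 4.17 ± 0.0743 in knockdown on the log2 scale, Cyba minus Ncf4 from 3.46 ± 0.0265 to 3.86 ± 0.143, and Cyba minus Rac2 from 2.93 ± 0.0509 to 3.27 ± 0.134 (SD, n = 3), each without overlap of the groups. On the linear scale the level of Cyba was 10.2 ± 0.871 times that of Ncf1 with the scrambled hairpin and 18.4 ± 0.947 times in knockdown. Cybb, the other membrane gene, differed from Ncf4 and Rac2 by much the same amount in both groups, within the spread. Cybb minus Ncf4 was 0.62 ± 0.194 with the scrambled hairpin and 0.66 ± 0.0405 in knockdown, and Cybb minus Rac2 was 0.09 ± 0.222 and 0.07 ± 0.0564. Against Ncf1, Cybb stood higher in knockdown, at 0.97 ± 0.119 compared with 0.50 ± 0.147, and these groups did not overlap. The larger gap between membrane and cytosolic genes in knockdown therefore lay mostly in the small shift of Cyba and the large fall of Ncf1. The cytosolic genes also differed among themselves, with Ncf1 minus Ncf4 at 0.12 ± 0.106 with the scrambled hairpin and -0.31 ± 0.0786 in knockdown. Ncf4 minus Rac2 was -0.53 ± 0.0510 and -0.59 ± 0.0199, a small shift, although the groups did not overlap.

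**Figure D2:**
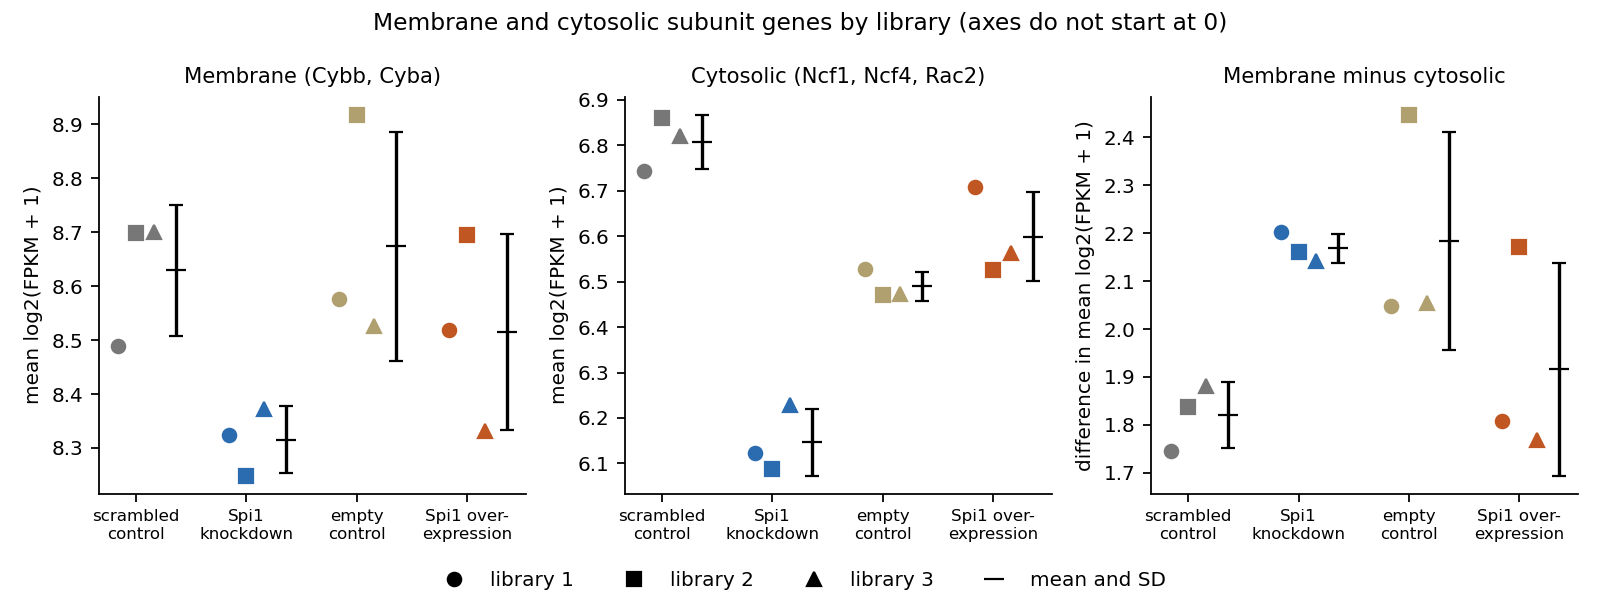
Mean log2(FPKM + 1) of the membrane genes, of the cytosolic genes, and their difference (vertical axes, not from 0), for each library by group, with mean and SD of 3 libraries. In the right panel the knockdown libraries lie at 2.14 to 2.20, above the scrambled controls at 1.75 to 1.88, and the overexpression libraries overlap the empty controls.

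With the Spi1 cDNA, no member was called, and no gene was: 0.0% of 11217 tested genes passed limma with BH adjustment, with 122 at an unadjusted p under 0.05. The blocked fit called 13 genes (0.116%), Spi1 among them and no member, and limma-voom on recovered reads called 0, with 94 at an unadjusted p under 0.05. In both groups of this experiment the library numbered 2 had the highest level of Cybb and the lowest of Ncf1. Values are therefore given by library number as well.

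Cybb was at 150.0, 234 and 147 FPKM in empty controls 1, 2 and 3 and at 128, 175 and 117 FPKM in the overexpression libraries. Each overexpression library was lower than the control of the same number, by log2 differences of -0.23, -0.42 and -0.32, while the groups as a whole overlapped. The mean log2 fold change was -0.32 with a 95% interval from -0.87 to 0.23 (limma, BH adjusted p = 0.99993). With the replicate block it was not called either (limma, BH adjusted p = 0.136). A lower value in all 3 same-numbered pairs was found in 23.8% of tested genes. Without the libraries numbered 2 the log2 fold change was -0.27.

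Ncf4 was at 71.3, 75.7 and 73.5 FPKM with the empty vector and at 87.4, 82.6 and 82.8 FPKM in overexpression. It was the only member whose groups did not overlap, as in 4.06% of tested genes, with 1.66% higher. The log2 fold change was 0.20 with a 95% interval from 0.01 to 0.38 (limma, BH adjusted p = 0.99993). Rac2 was at 109, 131 and 115 FPKM against 127, 138 and 119.6 FPKM, higher in each same-numbered pair by 0.21, 0.07 and 0.06 on the log2 scale, but with overlapping groups. A higher value in all 3 pairs was found in 14.0% of tested genes and in Ncf4 and Rac2 among the members.

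Ncf1, which fell furthest in knockdown, was at 97.4, 67.7 and 80.2 FPKM with the empty vector and at 100.2, 66.3 and 82.6 FPKM in overexpression. The 2 libraries of each number were close to each other, and the spread between numbers was far wider than the log2 fold change of 0.02 (95% interval from -0.44 to 0.48 in limma). Without empty control 2 or overexpression 1 this value was -0.11 or -0.13. Cyba was at 963, 995 and 921 FPKM against 1039.9, 978 and 876 FPKM, which is a log2 fold change of 0.00, with a 95% interval from -0.22 to 0.23 in limma. Neither gene shifted in 1 direction across the 3 numbers.

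The difference between membrane and cytosolic genes was 2.05, 2.45 and 2.06 in empty controls 1, 2 and 3 and 1.81, 2.17 and 1.77 in the overexpression libraries. It was lower with the cDNA at every number, the opposite sense to knockdown, although the group values of 2.18 ± 0.228 and 1.92 ± 0.222 (SD, n = 3) overlapped. The mean of the membrane genes differed by -0.16 and that of the cytosolic genes by 0.11, both with overlapping groups. Of the membrane genes Cybb stood at -0.32 and Cyba at 0.00, and Cybb was also lower in knockdown, at -0.49. Cybb minus Rac2 went from 0.54 ± 0.249 to 0.11 ± 0.201 and Cyba minus Ncf4 from 3.69 ± 0.0551 to 3.50 ± 0.0966, both without overlap, whereas Cyba minus Ncf1 was 3.55 ± 0.286 and 3.54 ± 0.281.

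Whether the 2 manipulations had unequal effects was tested over all 12 libraries, as the overexpression effect less the knockdown effect. The manipulations moved Spi1 in opposite senses, so a gene that fell in knockdown and stayed level in overexpression has a positive value. The 3 cytosolic genes were called, all higher, and the 2 membrane genes were not, beside 4.84% of 11224 genes called and 1.9% called higher. The effect on Ncf4 differed by 0.73 (SE 0.0971; limma, BH adjusted p = 0.00386), that on Ncf1 by 0.99 (SE 0.220; limma, BH adjusted p = 0.0312) and that on Rac2 by 0.59 (SE 0.121; limma, BH adjusted p = 0.0236). For Cyba the difference was 0.14 with a 95% interval from -0.09 to 0.37, which lies below the values of the 3 cytosolic genes. For Cybb it was 0.17, with an interval from -0.46 to 0.80. The Cybb interval, from the fit without the replicate block, is wide enough to hold the differences of Ncf4 and Rac2. With the block the SE for Cybb was 0.115 in place of 0.284, and Cybb was again not called (limma, BH adjusted p = 0.272). No test set the membrane genes against the cytosolic genes, so they are not shown to differ here.

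Ncf4 was still called without any 1 of the 12 libraries. The call of Ncf1 was lost in limma without scrambled control 1, 2 or 3, knockdown 1, 2 or 3, empty control 3, or overexpression 1 or 3 (adjusted p between 0.0541 and 0.0842), and without a filter on low values (0.0529). The call of Rac2 was lost without scrambled control 1 or 2, knockdown 1, 2 or 3, empty control 3, or overexpression 1 (adjusted p between 0.0506 and 0.0718 in limma). Without all 4 libraries numbered 2 none of the 3 was called (limma, adjusted p = 0.0558 for Ncf4, 0.0853 for Ncf1 and 0.0920 for Rac2). The blocked fit called 41.5% of all genes and the same 3 members.

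**Figure D3:**
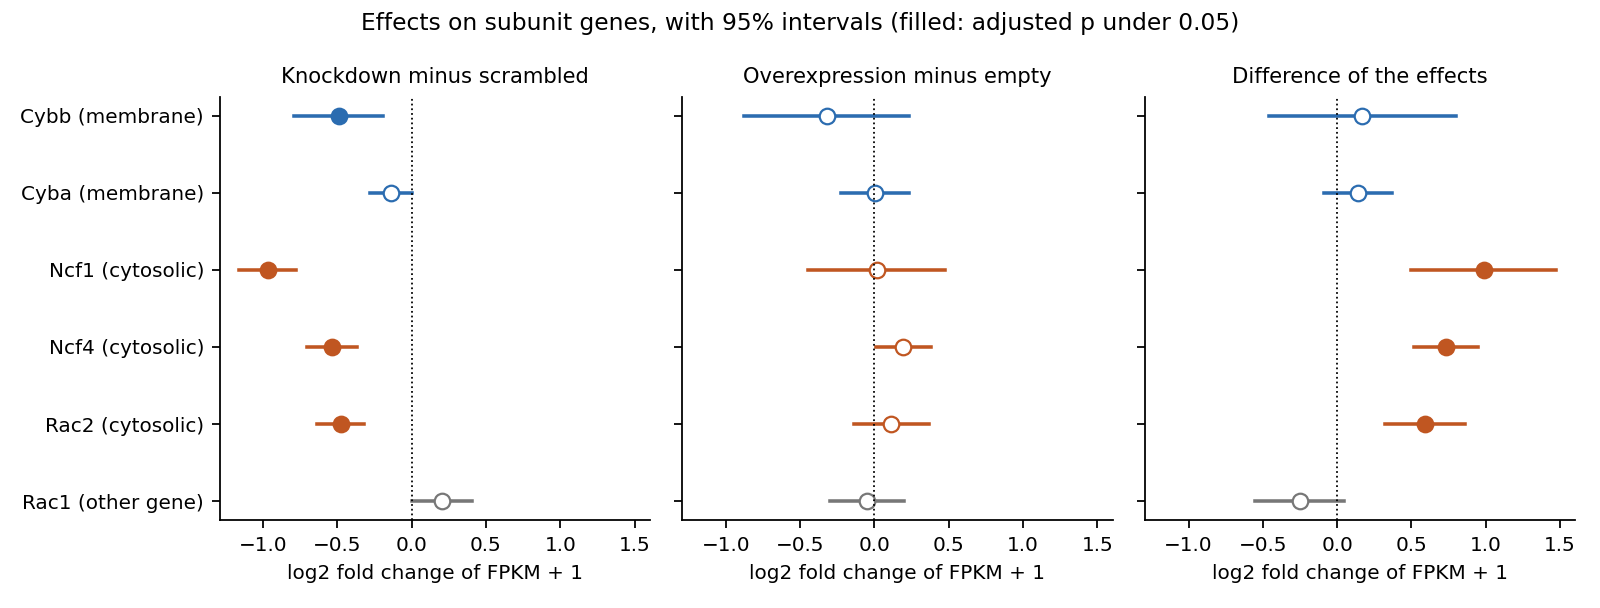
Log2 fold change of FPKM + 1 (horizontal axes) for the 5 subunit genes and Rac1 in knockdown, in overexpression and in the difference of the effects; lines are 95% intervals from limma and filled points have an adjusted p under 0.05. In knockdown Ncf1 lies furthest from 0 at -0.97, and in overexpression no point is filled.

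The 2 kinds of control were not at the same level. Scrambled controls had more Ncf4 than empty controls, with a log2 difference of 0.37 (SE 0.0687; limma, BH adjusted p = 0.0198), beside 4.11% of genes called and 0.633% called higher. Ncf4 was no longer called by limma without scrambled control 1 (adjusted p = 0.0634), scrambled control 2 (0.0799) or empty control 3 (0.0797), or without the libraries numbered 2 (0.0518). Rac2 and Cyba also lay higher in all scrambled than in all empty controls, by 0.22 and 0.14, as did 7.09% of tested genes, but were not called. Ncf1 differed by 0.35 and Cybb by -0.23, both with overlapping groups. Vector and experiment cannot be told apart in this comparison.

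Set against the empty controls, knockdown was lower by a log2 difference of -0.72 for Cybb, -0.61 for Ncf1, -0.25 for Rac2 and -0.16 for Ncf4, and stood at 0.01 for Cyba. None of the 5 was called there, where 3.28% of all genes were (limma, BH adjusted p = 0.0875 for Cybb and 0.0617 for Ncf1). Knockdown libraries lay below all empty controls for 4 of the 5 genes, Cyba being the exception, beside 11.0% of tested genes lower without overlap. For Ncf4 the greater part of the gap between knockdown and scrambled controls was thus matched by a gap between the 2 kinds of control. For Cybb the gap was wider against the empty controls.

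By group mean, Ncf1, Ncf4 and Rac2 shared 1 order, with scrambled controls highest, then overexpression, empty controls and knockdown. Among neighbours in that order only the step from empty controls to knockdown was free of overlap in all 3 genes, and Ncf4 was free of overlap at every step. Cybb was highest with the empty vector, at 177 ± 49.4 FPKM, followed by 148 ± 22.7 with the scrambled hairpin, 140.0 ± 30.4 in overexpression and 105 ± 10.8 in knockdown, and only the last step was free of overlap. Cyba was highest with the scrambled hairpin, at 1059 ± 19.3 FPKM, and its other 3 groups, between 959.7 ± 37.5 and 965 ± 83.0 FPKM, overlapped (SD, n = 3). Spi1 itself was highest in overexpression, so in no member did the full order of the groups follow that of Spi1. For Ncf1, Ncf4 and Rac2 only scrambled controls and overexpression, from different experiments and vectors, changed places. Within each experiment the means of Ncf1, Ncf4, Rac2 and Cyba moved in the sense of Spi1. In overexpression these log2 fold changes were 0.02, 0.20, 0.11 and 0.004, none of them called by limma. Cybb was lower with either manipulation.

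The way the genes varied over the 12 libraries was described by Pearson correlation of log2(FPKM + 1), with no test, since the libraries share groups, experiments and numbers. Ncf4 was close to Rac2, with r = 0.914, and to Ncf1, with r = 0.821, while Ncf1 and Rac2 were less close, at 0.688. The membrane partners Cybb and Cyba were only loosely related, at 0.252. Cybb was nearer to Rac2, also at 0.688, than to Cyba. Correlation with Spi1 was 0.804 for Ncf1, 0.792 for Rac2, 0.775 for Ncf4, 0.497 for Cybb and 0.229 for Cyba. Many genes were closer, as Spi1 ranked 405 of 11223 genes for Ncf1, 259 for Rac2, 197 for Ncf4, 1325 for Cybb and 1901 for Cyba. For Ncf4, Rac2 ranked 14 and Ncf1 114.

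Among 11223 other genes, those most like Ncf1 were Atp6v1a (r = 0.983), a proton pump subunit gene, Rap1b (0.982), a small GTPase gene, and Skap2 (0.981), the gene of a Src kinase-associated adaptor. Those most like Ncf4 were Ptafr (0.945), Alas1 (0.940) and Pstpip1 (0.940), which encode the platelet-activating factor receptor, an enzyme of haem synthesis and an actin-associated adaptor. Rac2 was most like Klc4 (0.960), Cd52 (0.952) and Xbp1 (0.951). Cybb was most like Rbm7 (0.930), Eri3 (0.924) and Gdi2 (0.922), and Cyba most like Alox5ap (0.858), P2rx4 (0.838) and Emp3 (0.825). The genes most like Cyba were thus less close to it than those most like the other members were to them.

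Rac1, the ubiquitous relative of Rac2, did not fall with it. Its level was 62.6, 71.4 and 77.1 FPKM with the scrambled hairpin and 77.7, 83.6 and 81.2 FPKM in knockdown, a log2 fold change of 0.20 (limma, BH adjusted p = 0.125), which the replicate block called as higher (limma, BH adjusted p = 0.0455). The level of Rac2 was 1.98 ± 0.192 times that of Rac1 with the scrambled hairpin and 1.23 ± 0.0902 times in knockdown (SD, n = 3), with no overlap. Exons of Rac1 overlap those of Daglb on the other strand over 2309 bases in GENCODE M21. Rap1a, a GTPase found with the flavocytochrome, fell by 0.24 on the log2 scale (limma, BH adjusted p = 0.0421), a call that was lost on leaving out any 1 of the 6 libraries (adjusted p between 0.0600 and 0.125 in limma). In the difference of the effects Rac1 was at -0.25 and Rap1a at 0.23, called with the replicate block alone (limma, BH adjusted p = 0.0269 and 0.0146).

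Of 10 other oxidase family genes considered, 5 were high enough to be tested, and 1, Rap1a, fell and 1 rose in knockdown; the median log2 fold change was -0.16, beside 0.07 over all tested genes. The shares over all tested genes, against which this and the next 4 lists can be read, were 8.86% lower and 17.4% higher, or 14.7% and 30.6% with the replicate block. The gene that rose was Nox1, which encodes another catalytic subunit of the family, from 1.32 ± 0.214 to 2.17 ± 0.408 FPKM on at most 180 reads in a library (limma, BH adjusted p = 0.0255). Its call was lost without scrambled control 1 or 3 or knockdown 1 or 2 (adjusted p between 0.0506 and 0.0671 in limma). With the empty vector Nox1 was at 1.98 ± 0.692 FPKM, close to its level in knockdown. The chaperone gene Cybc1, needed for stable flavocytochrome and listed as BC017643, was at 14.1 ± 0.488 FPKM with the scrambled hairpin and 12.5 ± 0.543 FPKM in knockdown and was not called (limma, BH adjusted p = 0.0989). Nox4, Noxa1, Duox1 and Duox2 had at most 3 reads in any library.

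Of 5 genes of proteins that act beside the oxidase 3 fell, beside 8.86% of all tested genes, and the median log2 fold change was -0.46. Clcn3, a chloride-proton exchanger gene, fell from 27.2 ± 0.804 to 17.8 ± 1.35 FPKM (adjusted p = 0.00328, limma with BH), and Coro1a, the gene of a leukocyte actin-binding protein, from 413 ± 12.4 to 295 ± 5.93 FPKM (adjusted p = 0.00326, limma with BH). Hvcn1, the gene of the proton channel that balances the charge moved by the oxidase, fell from 26.3 ± 3.28 to 18.9 ± 2.20 FPKM (adjusted p = 0.0256, limma with BH). The call of Hvcn1 was lost without scrambled control 2 or knockdown 1 or 3 (adjusted p between 0.0567 and 0.0785 in limma). Msn and Prdx6 were not called, with log2 fold changes of 0.12 and 0.19, and the replicate block called Prdx6 (limma, BH adjusted p = 0.0228).

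Among 14 regulators of Rac, 1 fell and 3 rose, with a median of -0.11, beside 8.86% and 17.4% of all tested genes. With the replicate block 5 fell and 3 rose, beside 14.7% and 30.6%. Dock1, the gene of an exchange factor for Rac, rose from 6.88 ± 0.601 to 9.68 ± 0.386 FPKM (adjusted p = 0.00777, limma with BH), while the leukocyte exchange factor genes Vav1 and Dock2 had log2 fold changes of 0.01 and -0.07. Arhgap25, a Rac-inactivating protein gene, fell by 0.35, and Arhgdia and Pak2 rose by 0.27 and 0.21. These calls were lost without knockdown 2 or 3 for Arhgap25, without any scrambled control or knockdown 2 or 3 for Arhgdia, and without any 1 library for Pak2 (adjusted p up to 0.0652, 0.111 and 0.125 in limma). Scrambled less empty controls gave log2 differences of -0.42 for Arhgdia, 0.28 for Arhgap25, -0.22 for Dock1 and -0.11 for Pak2, none called by limma. The means of Arhgdia were 167 FPKM with the scrambled hairpin, 201 FPKM in knockdown and 224 FPKM with the empty vector. Among 11 tested kinases upstream of the oxidase 2 fell and 1 rose, with a median of 0.02, or 2 and 2 with the replicate block; all genes stood at 8.86% and 17.4%, or 14.7% and 30.6% with the block. Syk, the kinase gene of Fc receptor signalling, fell from 52.8 ± 6.39 to 34.8 ± 0.844 FPKM (adjusted p = 0.00663, limma with BH). Prkcd, a kinase gene for phosphorylation of the organiser, fell by 0.33, and Prkce rose by 0.29, calls that were lost without scrambled control 1 or 3 or knockdown 2 or 3 for Prkcd and without any 1 library for Prkce (adjusted p up to 0.102 and 0.120 in limma).

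Of 12 tested genes that handle superoxide and peroxide 5 fell and 1 rose, with a median of 0.00, beside 8.86% and 17.4% of all tested genes. Cat, the catalase gene, fell from 84.5 ± 10.6 to 51.1 ± 4.10 FPKM (adjusted p = 0.00519, limma with BH), and the peroxidase genes Prdx5 and Gpx1 fell by 0.47 and 0.53 on the log2 scale; the others that fell were Prdx1 and Txnrd1, both lost without scrambled control 1 or 2 or knockdown 1 or 3 (adjusted p up to 0.128 and 0.117 in limma). The call of Prdx5 was lost without knockdown 2 (adjusted p = 0.0540) and that of Gpx1 without scrambled control 2 or 3 or knockdown 1 or 3 (adjusted p between 0.0711 and 0.0857 in limma). The mitochondrial peroxidase gene Prdx3 rose by 0.39, lost without knockdown 2 or 3 (adjusted p up to 0.0628 in limma). Prdx3 was at 36.6 ± 2.03 FPKM with the scrambled hairpin, 48.2 ± 4.25 FPKM in knockdown and 44.3 ± 3.86 FPKM with the empty vector. Cat was at 101 ± 14.0 FPKM with the empty vector. With the replicate block 5 of the 12 genes fell and 4 rose, beside 14.7% and 30.6%. Without both libraries numbered 2 the calls of Coro1a, Clcn3 and Cat held (limma, BH adjusted p = 0.0456, 0.0437 and 0.0410), and those of Dock1 (0.0610), Syk (0.0704), Hvcn1 (0.0689), Prdx5 (0.0529), Gpx1 (0.0672), Prdx3 (0.111) and Nox1 (0.0707) did not. In the overexpression experiment 0 genes of these lists were called by limma. Those nearest to a call had log2 fold changes of -0.13 (BC017643) and 0.10 (Nox3) in the oxidase family, -0.26 (Arhgap15) and -0.11 (Dock1) among Rac regulators and -0.16 (Pik3cg) and -0.13 (Pik3r5) among kinases. In the other lists they were -0.10 for Clcn3 and 0.05 for Prdx6, and -0.22 for Sod2 and 0.19 for Cat. The difference of the effects was called for Cat at 0.90, Coro1a at 0.45, Clcn3 at 0.49 and Dock1 at -0.55 (limma, BH adjusted p = 0.0231, 0.0218, 0.0283 and 0.0218). All 4 were lost without knockdown 3 (adjusted p = 0.0687, 0.0663, 0.0810 and 0.0669 in limma). Coro1a and Dock1 were also lost without scrambled control 2 or knockdown 1, and Dock1 without empty control 3. Cat was also lost without scrambled control 1 or 2, knockdown 1, empty control 3 or overexpression 1, and Clcn3 without any scrambled control, knockdown 2, empty control 3 or overexpression 3.

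**Figure D4:**
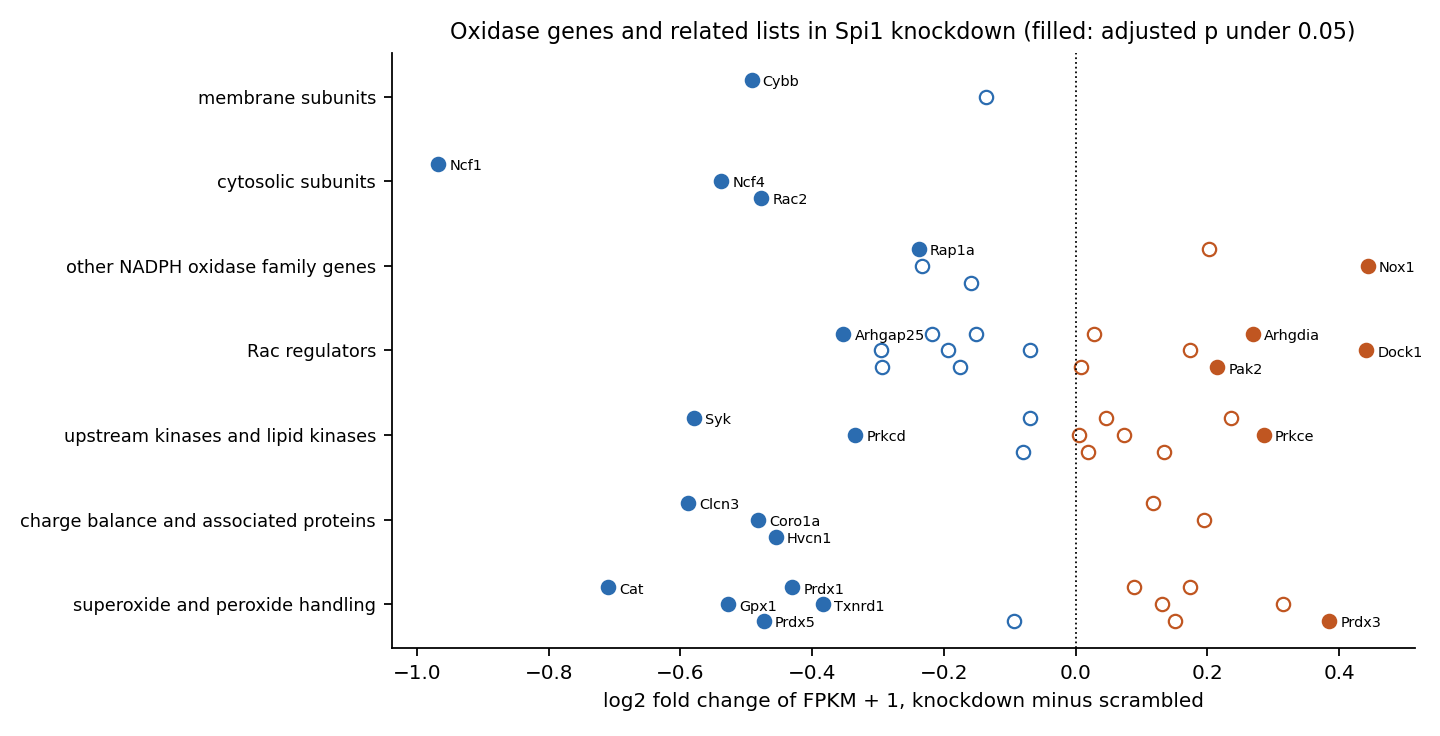
Log2 fold change of FPKM + 1 in knockdown against scrambled controls (horizontal axis) for the subunit genes and 5 lists of related genes (rows); each point is a gene, filled and named where the adjusted p is under 0.05, with points offset vertically only to separate them. The cytosolic subunits are all filled and below 0, and Cyba is the open point among the membrane subunits.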

How the data were processed

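The authors deposited 2 tables, 1 per experiment, with 1 column per library and 24062 entries by gene symbol; 4 entries with a repeated symbol were left out. The submitters' processing notes name build mm10, STAR 2.5.2a, featureCounts, DESeq2 1.14, bcl2fastq and CASAVA 1.8.2, with no roles given, and per the labels' protocols single reads of 100 bases came from TruSeq v2 libraries of polyA RNA. The deposited values are FPKM, a unit read from the values, since within a gene all are whole multiples of a step; reads were recovered for 17836 of 17838 genes above 0 (whole within 0.005) and gave depth, lengths and limma-voom. Knockdown and overexpression were fitted separately (limma 3.58.1, R 4.3.3) on log2(FPKM + 1), keeping genes whose mean reached 1 FPKM and adjusting by BH over all of them, and the difference of effects and the 2 controls over all 12 libraries. The analysis was tested on simulated data. Alternatives were the pseudocount, the filter, scaling, an intensity trend, the replicate block, each library left out, both libraries numbered 2 left out, and limma-voom, which was chosen after seeing the data. No protein sequences were used here.

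Same-numbered libraries deviated together from their group means, with correlations across genes of 0.397, 0.540 and 0.345 in the knockdown experiment and 0.791, 0.845 and 0.513 in the other; the pairing comes from the numbers in the titles. The named genes are the 5 members, Spi1, Rac1 and Rap1a, up to 4 called genes per list (or 2 of smallest p), and the 3 genes most correlated with each member; Vav1, Dock2, Msn, Nox4, Noxa1, Duox1, Prdx1, Prdx6, Txnrd1 and Duox2 were named after their values were seen. Members and lists were chosen with earlier results of these data known. A gene of the oxidase family list is not reported here.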

Additional observations from a re-analysis of the deposited data

Results flagged for a closer look

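The effects of the 2 manipulations differed for Ncf1, Ncf4 and Rac2 in a test of the difference itself, overexpression effect minus knockdown effect over 12 libraries. The values were 0.99 for Ncf1, 0.73 for Ncf4 and 0.59 for Rac2 on the log2 scale (limma, BH adjusted p = 0.0312, 0.00386 and 0.0236). They contain the knockdown effects of -0.97, -0.54 and -0.48 already given, beside overexpression effects of 0.02, 0.20 and 0.11. They are therefore no evidence separate from the knockdown calls. All 3 genes are cytosolic subunit genes, which fell in knockdown and were not called in overexpression, where limma without the block called no gene. The same was true of the membrane gene Cybb. With 1 library left out, the call of the difference held in 12 of 12 fits for Ncf4, 3 for Ncf1 and 5 for Rac2. In the difference of effects 4.84% of all tested genes were called.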

How the results depend on the processing

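Of 335 recomputed member results under the alternatives, 297 kept their direction and side of the threshold, 32 lost a call, 1 gained one and 5 turned in sign. The signs that turned belong to values near 0 that were never called. In overexpression, with single libraries left out, Cyba ranged from -0.0517 to 0.0722, Ncf1 from -0.127 to 0.168, Rac1 from -0.115 to 0.0150 and Rap1a from -0.125 to 0.0870, and with median-of-ratios scaling Rap1a was at 0.00528. Between the controls Rac1 was at 0.00727 with that scaling and ranged from -0.108 to 0.0404.

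With the replicate block, in which the numbers pair the libraries, 5081 genes passed in place of 2945 in knockdown, 13 in place of 0 in overexpression and 4658 in place of 543 for the difference; it changed no call of the 5 members. Leaving out 1 library gave 1458 to 2206 genes in knockdown, 109 to 575 for the difference and 49 to 585 for the controls (461 with all), with 3 to 4 members called in knockdown, 1 to 3 for the difference and 0 to 1 for the controls. Leaving out the libraries numbered 2 left 449 genes and 1 member, Ncf1, in knockdown, 80 genes and 0 members for the difference, and 0 members between controls. With median-of-ratios scaling 1248 genes were higher and 1454 lower in knockdown, against 1952 and 993, 339 and 253 for the difference, against 213 and 330, and 150 and 360 for the controls, against 71 and 390. The membrane minus cytosolic difference in knockdown was 0.44 with Rac2 left out, a choice made after seeing the data, and ranged from 0.31 to 0.38 with single libraries left out. Fewer samples left smaller tests, and the cause of the other changes was not tested. Reads were ample for all members, so depth limits the low genes, such as Nox1 and Nox3.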
